A study of Callithrix jacchus with 54 samples.

Results

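The collagen chain genes of the common marmoset (Callithrix jacchus) were described across 27 conditions of an in vitro germ cell induction series. A collagen chain gene was any row of the deposited expression table whose symbol reads COL, a number, A and a number, which gave 40 of 14812 genes. The rule reads names only and no expression value.

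The series measured poly(A) RNA from the marmoset embryonic stem cell line CMES40 (cjESC) and from primordial germ cell-like cells (cjPGCLC) made from it, with 2 libraries in each condition and 54 in all. All cells carried the reporters BLIMP1-tdTomato (BT) and NANOS3-eGFP (NG) and came from picked colonies. The study's methods call the 2 libraries of a condition biological duplicates, without saying whether they were separate cultures or separate inductions, so the p-values measure the spread between such duplicates. Values are in TPM, an abundance unit that corrects for transcript length, so levels of different chains can be set side by side.

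In the first arm the genotype was rtTA; tetO-BLIMP1; SOX17-GR; DD-TFAP2C, that is, inducible forms of 3 transcription factors (in the labels the number in the last name runs upward from library to library, which was read as a spreadsheet fill). These cells were kept in DK20FA, a KnockOut serum replacement medium with bFGF and activin A. They were then cultured in BLSE, which holds BMP4, LIF, SCF, EGF and a Rock inhibitor, for 12, 24, 48 or 96 h. The SOX17+BLSE condition added enforced SOX17, for which the study's methods name dexamethasone, the glucocorticoid that activates SOX17-GR, and SOX17+LSE had SOX17 but no BMP4, at the same 4 times. In the second arm the labels give wild type, meaning the reporters without those transgenes. These cjESCs were kept in PESFA, a Primate ESC medium with bFGF and activin A, and were pre-treated for 24 h with IM12, a GSK3 inhibitor, and activin A (Pre). They then received BLSE with IWR1, an inhibitor of WNT signalling, for 12, 24, 48 or 96 h or 6 days, or BLSE with IWR1 and BMS493, an inverse agonist of retinoic acid receptors, for 12 to 96 h. Day-6 cjPGCLCs were aggregated with mouse gonadal somatic cells in a xenogeneic reconstituted ovary (xrOvary) and taken after 20, 40 or 70 days. cjESC and Pre cells were sorted as TRA-1-60(+), a step that separates them from the mouse embryonic fibroblasts on which cjESCs grow. Cells at 12 to 48 h were not sorted. At 96 h the BLSE cells without SOX17 were also unsorted, whereas the other 96 h cells, the day-6 cells and the xrOvary cells were sorted as tdTomato(+).

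Collagens are triple helices of 3 chains, and their genes fall into classes by the structure the trimer builds. The fibrillar types I, III and V form the fibres of connective tissue, type IV forms the sheet of basement membranes, and type VI forms beaded microfibrils. FACIT collagens sit on the surface of fibrils, type VII anchors epithelium to the tissue beneath, the multiplexins XV and XVIII bind basement membranes, and the transmembrane types such as XVII and XXIII stay in the plasma membrane. Early embryonic epithelia deposit type IV collagen, and mesenchymal cells such as fibroblasts are the usual source of types I, III and V.

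The libraries listed 10146 to 12688 genes above 0, and the 2 libraries of a condition correlated at 0.977 to 0.994 across genes. The labels were checked against marker genes. The summed TPM of 5 pluripotency markers was 4715 and 4058 in DK20FA cjESCs, 5157 and 4815 in PESFA cjESCs and only 252 and 248 in BLSE at 96 h, where 6 mesoderm markers summed to 3723 and 3545. In xrOvary cells at day 70, 6 germ cell markers summed to 1510 and 1552. They summed to 3071 and 3319 at day 6, 839 and 674 in DK20FA cjESCs and 818 and 773 in PESFA cjESCs. The pluripotency sum was 7592 and 7724 at day 6, above both cjESC conditions, so it does not separate cjESCs from cjPGCLCs. The 11 fibroblast markers in the table summed to 1067 and 1627 TPM in DK20FA cjESCs against 2251 and 2814 in PESFA cjESCs. FBLN1, a matrix glycoprotein, averaged 357 to 2004 TPM in every condition, so the sum of the other 10 is also given; this split was chosen after its values were seen. Without FBLN1 the sums were 68.1 and 116 against 1647 and 2247, and in the cjESC and Pre conditions 0 of 11 fibroblast markers were at 0 in both libraries.

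Of the 40 chain genes, 31 passed the filter on low values (log2(TPM + 1) of at least 1.5 in 1 or more libraries) and were tested among 11197 genes. A gene is said to have risen or fallen when limma's test on log2(TPM + 1), fitted over all 54 libraries, gave an adjusted p under 0.01, and it is called a DEG when the difference was also over 4-fold and the mean log2 level over 1.5. For 2 libraries against 2, the smallest p that exact permutation of 1 gene's values allows is 0.33, so every call rests on the spread pooled over the 27 conditions (27 residual degrees of freedom). Over the 21 comparisons of 2 conditions made here, 21 of the 31 chains were a DEG at least once and 10 never were. The matching share of all genes was not computed, so these counts do not set collagens apart from other genes. COL1A2, a chain of type I collagen, was a DEG in 8 comparisons, in 7 of them lower. COL17A1, the type XVII chain of hemidesmosomes, was higher in 5 and lower in 0, and COL8A1, a short-chain collagen of network-forming type VIII, was lower in 6 and higher in 0.

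**Figure D1:**
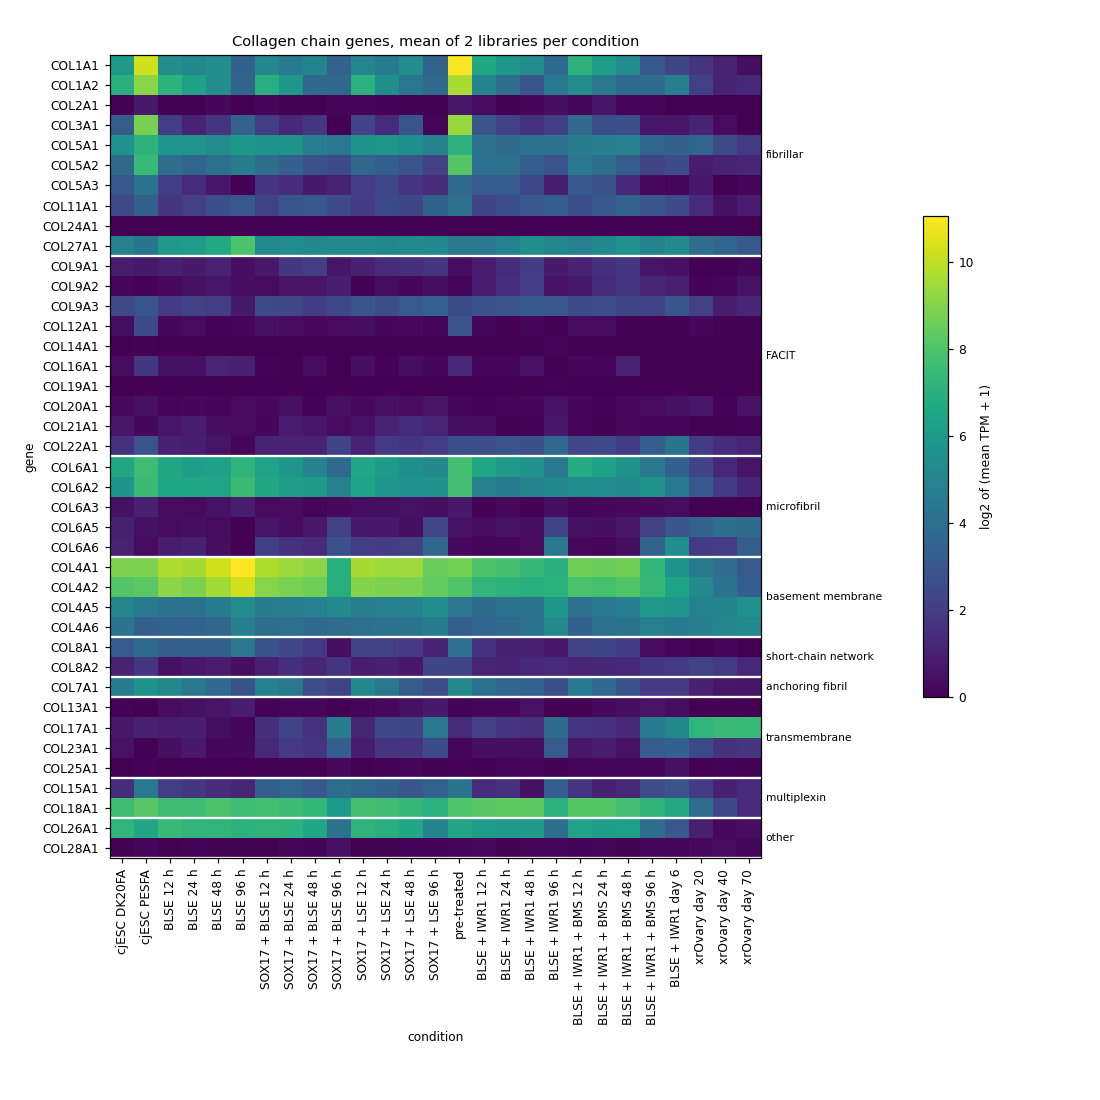
Heatmap of log2 of the mean TPM plus 1 for the 40 collagen chain genes (rows, grouped by structural class) in the 27 conditions (columns, by arm and time); each cell is the mean of 2 libraries. COL4A1 and COL4A2 are high until late induction, COL1A1, COL1A2, COL3A1, COL5A1, COL5A2 and COL5A3 are highest in the PESFA and Pre columns, and COL17A1 is highest in the 3 xrOvary columns.

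Summed over the 40 genes, collagen mRNA varied between conditions by more than it varied between libraries of a condition. The sum was 1457 and 1783 TPM in DK20FA cjESCs, 4996 and 3517 in PESFA cjESCs and 4219 and 6892 in Pre cells. It was 4370 and 4651 in BLSE at 96 h but 579 and 579 in SOX17+BLSE at 96 h, and it was 583 and 565 at day 6 and 316 and 333 in xrOvary at day 70. The high sums were thus reached with different chains. Type IV chains made up a mean of 76.5% of the sum in BLSE at 96 h and 19.1% in PESFA cjESCs, whereas fibrillar chains made up 65.8% and 54.1% of it in the 2 PESFA libraries and 64.7% and 75.4% in the 2 Pre libraries. Transmembrane collagens were 0.074% of the sum in DK20FA cjESCs, 7.84% at day 6 and 54% in xrOvary at day 70, where COL17A1 had a mean of 173 TPM and COL23A1 of 2.26.

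**Figure D2:**
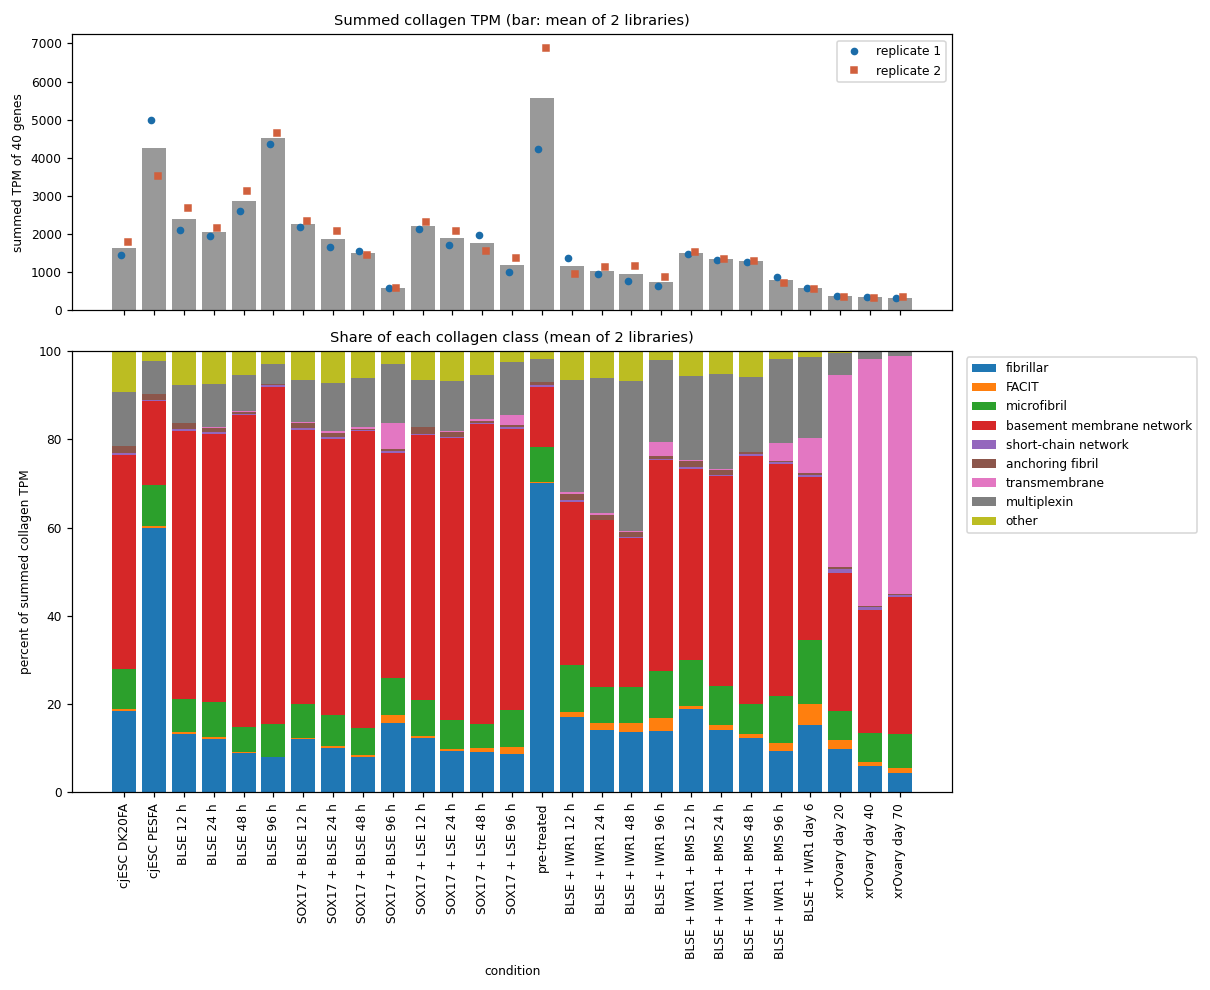
Summed TPM of the 40 collagen genes in each of the 27 conditions (bars, mean of 2 libraries, with a point for each library) and the percent of that sum from each structural class (stacked bars). The sum is high in PESFA and Pre cells, where the fibrillar share dominates, and in BLSE at 96 h, where the type IV share is 76.5%, and it falls to 316 and 333 TPM in xrOvary at day 70, where the transmembrane share is 54%.

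COL4A1 and COL4A2, the chains of the most widespread basement membrane collagen, and COL27A1, a fibrillar chain known from cartilage, rose over the 96 h in BLSE without SOX17. COL4A1 was 405 and 522 TPM in DK20FA cjESCs, 809 and 920 at 12 h, 782 and 726 at 24 h, 1146 and 1353 at 48 h and 2118 and 2154 at 96 h. COL4A2 went from 232 and 310 in cjESCs to 673 and 797 at 48 h and 1186 and 1308 at 96 h. COL27A1 was 24.1 and 32.4 in cjESCs, 55.6 and 63.9 at 12 h, 96.5 and 111 at 48 h and 225 and 257 at 96 h. For all 3 genes the libraries at 48 h and at 96 h lay above those of the cjESCs with no overlap. The share of all genes whose libraries did not overlap was not computed, for this or any later comparison. In bulk RNA fewer cells of a type and less RNA per cell cannot be told apart, which holds for every difference given here. At 12 h none of the 31 chains was a DEG by limma, with 11 at an unadjusted p under 0.05, against 0.741% of all genes called. COL27A1 (1.07 on the log2 scale), COL4A2 (1.04) and COL4A1 (0.91) rose by the adjusted p at that time, and COL4A5 and COL5A3 fell. Of all genes 4.23% rose and 3.18% fell. Each of these 5 calls was lost when 1 library was left out. Without replicate 1 of the DK20FA cjESCs the adjusted p was 0.0285 for COL27A1, 0.0387 for COL4A2 and 0.115 for COL4A1.

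At 48 h of BLSE against DK20FA cjESCs, 4 chains rose and 3 fell, where 9.75% of all genes rose and 10% fell. The log2 rise was 1.85 for COL27A1 (95% interval 1.43 to 2.27, adjusted p 5.8e-09 by limma), 1.44 for COL4A1 (0.97 to 1.90) and 1.45 for COL4A2 (1.02 to 1.87). The single DEG was COL5A3, a minor chain of fibrillar type V, which went from 7.51 and 7.18 TPM to 0.71 and 0.51 (log2 difference -2.38, interval -2.90 to -1.86), where 1.71% of all genes were higher and 1.67% lower DEGs (3.38% in either direction). It was no DEG in a fit of these 4 libraries alone or with a pseudocount of 0.1. Without either DK20FA library, or without replicate 2 of BLSE at 48 h, the count of DEGs was 2.

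At 96 h of BLSE the same comparison gave 3 higher and 3 lower DEGs among the 31 chains, where 2.82% of all genes were higher and 3.3% lower DEGs (6.12% in either direction). COL27A1 rose by 3.06 on the log2 scale (2.64 to 3.48, adjusted p 9.1e-15 by limma), COL4A1 by 2.21 (1.75 to 2.68) and COL4A2 by 2.21 (1.78 to 2.64). COL6A2, a chain of the type VI microfibril, went from 42.0 and 62.3 TPM to 160 and 213, a rise of 1.83. The type I chains went the other way. COL1A1 was 41.8 and 83.6 TPM in cjESCs and 9.34 and 10.4 at 96 h (-2.47, interval -3.24 to -1.71), and COL1A2 was 141 and 108 against 6.92 and 14.5 (-3.49, interval -4.45 to -2.53). COL5A3 was listed at 0 and 0.12 TPM at 96 h and was the remaining lower DEG. COL3A1, the type III chain, was 3.71 and 13.6 TPM in cjESCs and 10.7 and 9.92 at 96 h, with overlapping libraries (0.45, interval -0.57 to 1.47). By the adjusted p alone 6 chains rose and 8 fell, against 12.4% and 17.1% of all genes. Of these 14 calls, COL6A1, COL8A1, COL6A6 and COL6A5 were lost when 1 library was left out, COL6A1 at an adjusted p of 0.103 without replicate 2 of BLSE at 96 h. From 48 to 96 h of BLSE none of the chains was a DEG by limma (14 at an unadjusted p under 0.05, with 1.29% of all genes called). The count was 2 without replicate 1 of BLSE at 48 h or replicate 2 of BLSE at 96 h, and 1 with a pseudocount of 0.1. COL27A1 rose by 1.21 and COL1A1 fell by 1.99 over that step whichever library was left out.

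Other basement membrane components in BLSE at 96 h moved in both directions. Of 13 tested partners of type IV collagen, 6 rose and 2 fell, where 12.4% of all genes rose and 17.1% fell. NID2, the linker nidogen 2, rose by 3.58 on the log2 scale, LAMC1, the laminin gamma 1 chain shared by most laminins, by 1.93 and LAMB1, a laminin beta chain, by 1.07. SERPINH1, the chaperone that binds newly made collagen triple helices, rose by 0.80, whereas LOX, an enzyme that crosslinks fibrillar collagen, fell by 1.43. Of 27 tested biosynthesis genes 11 rose and 4 fell, against the same shares of all genes. Of 11 tested genes for collagen removal or its inhibition 2 were higher DEGs, where 2.82% of all genes were higher and 3.3% lower DEGs. They were TIMP1, an inhibitor of matrix metalloproteinases (2.92), and MMP2, a gelatinase that cleaves type IV collagen (2.29). DCN, encoding the fibril-binding proteoglycan decorin, went from 16.4 and 35.3 TPM in cjESCs to 1703 and 1054. The 96 h cells were unsorted and the cjESCs sorted, and the fibroblast markers in BLSE at 96 h summed to 3192 and 2545 TPM against 1067 and 1627, or 1932 and 1237 against 68.1 and 116 without FBLN1, with 1 of 11 at 0 in both libraries. Of these markers 3 were higher DEGs (DCN, LUM and PDGFRA) and 2 lower (PDGFRB and S100A6), and DCN alone held most of the sum without FBLN1. The part of such cells in the collagen values was not tested.

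**Figure D3:**
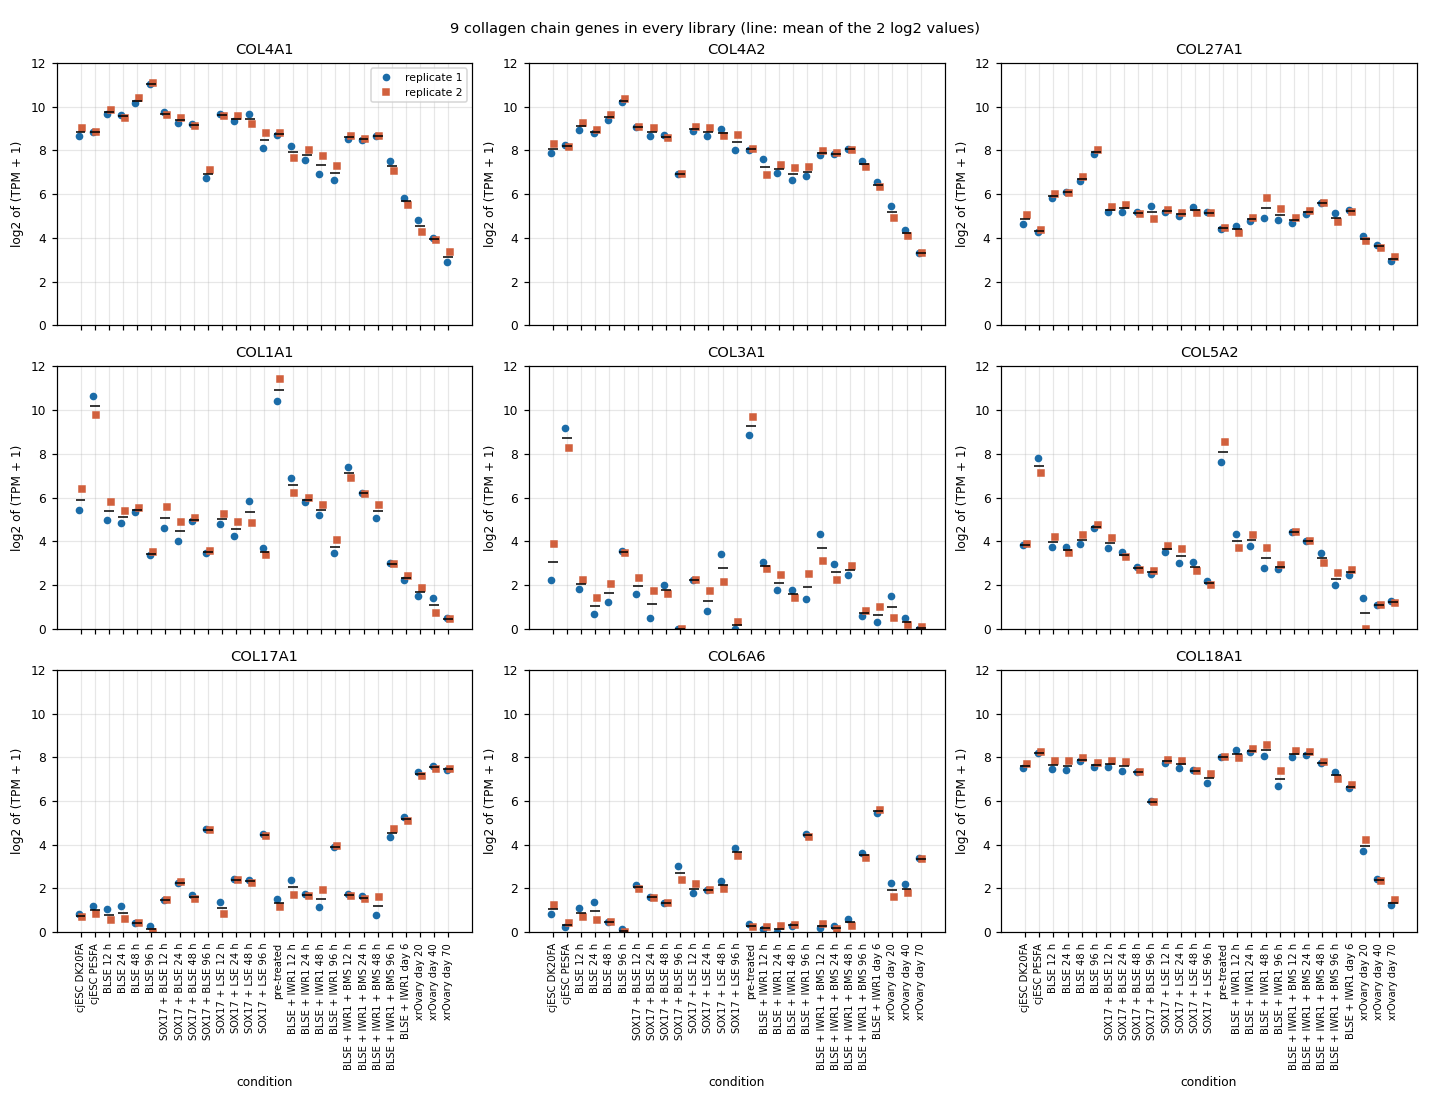
TPM of 9 collagen chain genes in each of the 54 libraries (points, log axis of TPM plus 1) by condition. COL4A1, COL4A2 and COL27A1 climb in BLSE and drop under SOX17, COL1A1, COL3A1 and COL5A2 are high in the PESFA and Pre libraries, and COL17A1 and COL6A6 are higher at 96 h of cjPGCLC induction than in cjESCs.

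Enforced SOX17 with the same cytokines went with lower type IV, COL27A1 and COL6A1 mRNA at 48 and 96 h. At 12 h COL4A1 was 857 and 784 TPM in SOX17+BLSE against 809 and 920 in BLSE. At 48 h it was 588 and 552 against 1146 and 1353, and at 96 h 107 and 136 against 2118 and 2154. COL4A2 at 96 h was 120 and 121 against 1186 and 1308, and COL27A1 43.1 and 28.6 against 225 and 257. The libraries of the 2 conditions overlapped for COL4A1 at 12 h and did not at 48 and 96 h. Dexamethasone and SOX17 cannot be told apart in these comparisons. At 48 h 5 chains rose and 8 fell with SOX17, where 10.3% of all genes rose and 6.37% fell, and none was a DEG by limma (17 at an unadjusted p under 0.05, where 2.02% of all genes were called, 1.19% higher and 0.831% lower). COL27A1 fell by 1.59 on the log2 scale, COL8A1 by 1.55 and COL6A1, the first type VI chain, by 1.41. COL15A1, a multiplexin, rose by 1.6 and COL23A1, a transmembrane collagen, by 1.56. These 5 calls held with any 1 library left out. The count of DEGs was 1 without replicate 1 of BLSE at 48 h and 1 with a pseudocount of 0.1. The falls of COL4A1 (-1.13) and COL4A2 (-0.88) were lost with 1 library left out, at adjusted p of 0.0108 and 0.0401 without replicate 2 of BLSE at 48 h.

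At 96 h, SOX17+BLSE against BLSE gave 3 higher and 9 lower DEGs among the 31 chains, where 4.74% of all genes were higher and 3.94% lower DEGs (8.68% in either direction). Regardless of fold, 9 rose and 13 fell, against 29.3% and 16.1%. The median log2 difference was -0.06 over the chains and 0.24 over all genes. Rescaling by the median ratio or by quantiles moved the all-gene median by -0.24 or -0.20 and turned no call of a chain. Among chains of network and microfibril collagens, COL4A1 fell by 4.13 (interval -4.60 to -3.67, adjusted p 1.5e-17 by limma), COL8A1 by 3.92, COL6A1 by 3.44, COL4A2 by 3.35 and COL6A2 by 2.73. COL6A1 was 11.9 and 13.3 TPM with SOX17 and 134 and 159 without, and COL8A1 was 0.57 and 0.17 against 22.4 and 16.9. In both genes the groups were far apart. COL26A1, a collagen outside the main classes, fell by 2.95 from 142 and 126 to 13.5 and 20.0 TPM, COL27A1 fell by 2.74, and COL5A2, a chain of type V, fell by 2.10 from 23.6 and 25.5 to 4.69 and 5.27. COL3A1 was listed at 0 in both SOX17+BLSE libraries and at 10.7 and 9.92 TPM in BLSE. COL17A1 was the chain with the largest rise, from 0.23 and 0 TPM to 25.1 and 24.5 (4.54 on the log2(TPM + 1) scale, 4.0 to 5.07). COL23A1 rose by 3.07 and COL15A1 by 2.86, the latter from 0.77 and 1.75 to 14.8 and 15.2 TPM. The 12 DEGs held with any 1 library left out.

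The genes that make and bind collagen shifted alongside in this comparison. Of 27 biosynthesis genes 2 rose and 17 fell, where 29.3% of all genes rose and 16.1% fell. SERPINH1 was 232 and 245 TPM with SOX17 and 1565 and 1597 without, a fall of 2.72, and FKBP10, a folding enzyme of the endoplasmic reticulum, fell by 3.44. ITGA1, the alpha subunit of a collagen-binding integrin, fell by 4.06, LAMA1, the laminin alpha chain of early embryonic basement membrane, by 2.45, and SPARC, a collagen-binding matrix protein, by 2.17. All 6 mesoderm markers were lower DEGs, with VIM down by 4.83, and DCN fell by 7.30. The fibroblast markers summed to 777 and 819 TPM with SOX17 against 3192 and 2545, or 92.8 and 149 against 1932 and 1237 without FBLN1, and 3 of 11 rose and 4 fell. The SOX17+BLSE cells were sorted as tdTomato(+) and the BLSE cells were not. Sorting and SOX17 cannot be told apart here at 96 h, and at 48 h neither condition was sorted.

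Set against the starting cjESCs, SOX17+BLSE at 96 h had 3 higher and 7 lower DEGs among the chains, where 3.34% of all genes were higher and 3.39% lower DEGs (6.73% in either direction). On adjusted p without the fold criterion, 5 rose and 13 fell, against 25.6% and 17.6%. COL17A1 rose by 3.95, COL23A1 by 2.76 and COL15A1 by 2.58 on the log2 scale. COL4A1 (-1.92), COL4A2 (-1.14), COL18A1 (-1.63) and COL6A1 (-2.77) fell, so that type IV mRNA ended below its level in cjESCs. COL18A1, the multiplexin that carries endostatin, was 181 and 206 TPM in cjESCs and 63.3 and 60.1 after 96 h, and COL7A1, the anchoring fibril chain, fell by 2.40. While these chains fell, LAMC1 rose from 80.8 and 94.1 to 402 and 340 TPM and NID2 from 6.18 and 6.67 to 108 and 114.

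BMP4 was the difference between SOX17+BLSE and SOX17+LSE. At 48 h none of the chains was a DEG by limma (8 at an unadjusted p under 0.05, where 1.02% of all genes were called, 0.616% higher and 0.402% lower). COL4A1 differed by -0.28 with an interval of -0.74 to 0.18, and COL4A2 by -0.18 with an interval of -0.60 to 0.25. The one chain past the adjusted p, COL9A3 of the cartilage FACIT type IX (-1.21, adjusted p 0.0071), was lost with 1 library left out, at an adjusted p of up to 0.214, and 4.61% of all genes rose and 3.4% fell. At 96 h, both sorted as tdTomato(+), COL4A1 was 107 and 136 TPM with BMP4 and 280 and 449 without, and COL6A1 was 11.9 and 13.3 against 32.3 and 37.1. No library with BMP4 reached the lowest one without it. COL4A1 was lower with BMP4 by 1.55 (-2.01 to -1.08, adjusted p 7.3e-06 by limma), COL4A2 by 1.44 and COL6A1 by 1.39, while no chain was a DEG (14 at an unadjusted p under 0.05, 0.768% of all genes called). COL18A1 also passed (-1.06), but lost the call with 1 library left out, at an adjusted p of 0.0179. For 4 chains that fell and 0 that rose, the shares of all genes were 4.55% and 2.55%. COL17A1 was 25.1 and 24.5 TPM with BMP4 and 21.3 and 20.2 without (0.24, interval -0.29 to 0.78).

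The second arm began from a different collagen profile. In PESFA cjESCs against DK20FA cjESCs, 5 of the 31 chains were higher DEGs and 0 were lower, where 1.45% of all genes were higher and 0.589% lower DEGs (2.04% in either direction). The median log2 difference was 0.60 over the chains, 1.82 over the 8 tested fibrillar chains and -0.08 over all genes. COL1A1 was 1598 and 878 TPM in PESFA against 41.8 and 83.6 in DK20FA, a rise of 4.30 (3.54 to 5.06, adjusted p 5.1e-11 by limma). COL3A1 was 587 and 310 against 3.71 and 13.6, and COL5A2 was 225 and 137 against 13 and 13.7. The lowest PESFA library was above the highest DK20FA library for each of these 3 genes. COL5A2 rose by 3.62 and COL15A1 by 3.0, from 2.17 and 1.26 to 21.3 and 19.6 TPM. COL1A2 rose by 2.08, from 141 and 108 to 659 and 419, but its adjusted p was 0.0256 without replicate 1 of PESFA and 0.0181 without replicate 2 of DK20FA.

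Other chains rose less, and the type IV pair did not pass the test. COL12A1, a FACIT of dense connective tissue, rose by 2.01, COL6A2 by 1.82, COL5A1 by 1.55, COL16A1, another FACIT, by 1.46 and COL6A1 by 1.08. Without the fold criterion 12 chains rose and 1 fell, against 8.09% and 8.73% of all genes. COL4A1 was 466 and 461 TPM in PESFA and 405 and 522 in DK20FA (0.01, interval -0.45 to 0.47), and COL4A2 differed by 0.14 (-0.29 to 0.56). Among the 13 calls, COL1A2, COL4A6, COL5A3 and COL22A1, were lost with 1 library left out, and a fit of these 4 libraries alone called 0 DEGs.

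Of 27 biosynthesis genes 15 rose and 2 fell in PESFA cjESCs, 7 of them higher DEGs. Of all genes 8.09% rose, 8.73% fell and 1.45% were higher DEGs. PCOLCE, the enhancer of procollagen C-proteinase, rose by 4.25, BMP1, that proteinase, by 3.65, LOX by 3.36 and ADAMTS2, which removes the procollagen amino end, by 2.68. DDR2, a receptor for fibrillar collagen, went from 9.47 and 7.07 to 68.0 and 89.9 TPM (3.11). None of the 13 basement membrane partners was a DEG, LAMB1 rising by 1.12. Of 11 fibroblast markers 7 rose, 5 of them as higher DEGs, and 1 fell, FBLN1 (-1.07). S100A6, a calcium-binding protein abundant in fibroblasts, was 1309 and 1846 TPM in PESFA and 5.22 and 28.2 in DK20FA, and PRRX1, a transcription factor of limb and craniofacial mesenchyme, rose by 3.81. Both groups had been sorted as TRA-1-60(+) from cultures on mouse fibroblasts, and the part of other cells in these values was not tested. The medium and the transgenes cannot be told apart in this comparison.

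**Figure D4:**
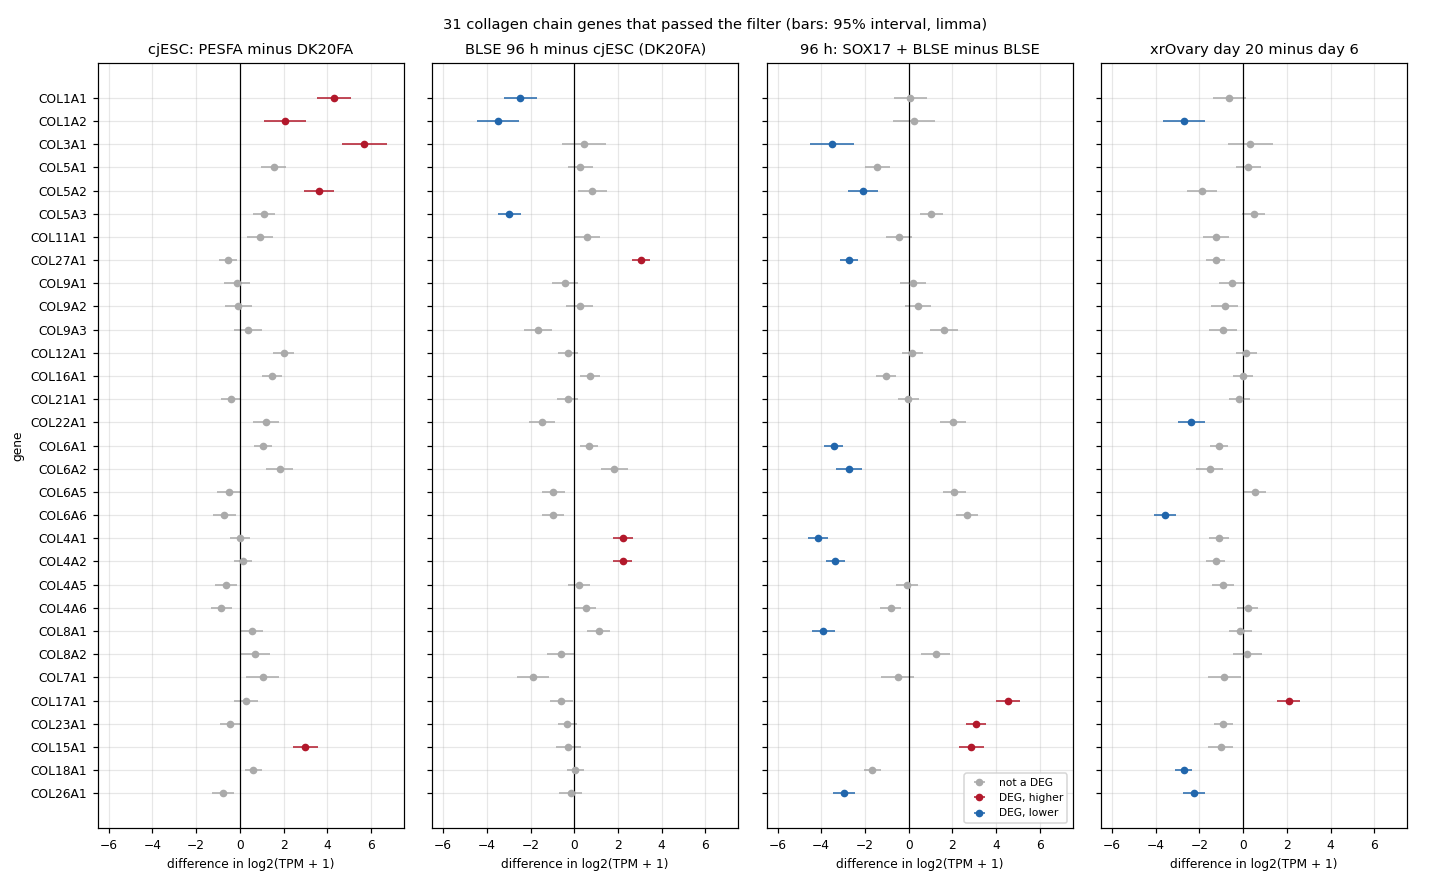
log2 differences of the 31 tested collagen chain genes in 4 comparisons (points, with limma's 95% intervals as bars; 2 libraries against 2 in each; a vertical line marks 0). The intervals of COL3A1, COL1A1 and COL5A2 lie far right for PESFA minus DK20FA, those of COL4A1, COL4A2 and COL27A1 lie right for BLSE at 96 h and left once SOX17 is added, and COL17A1 lies right for xrOvary day 20 minus day 6 with an interval of 1.56 to 2.63.

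After pre-treatment with IM12 and activin A no difference from PESFA cjESCs was called among the chains. None of the 31 chains passed limma's adjusted p, 2 were at an unadjusted p under 0.05, 0.0357% of all genes were DEGs, and 0.0893% rose and 0.214% fell. The 2 Pre libraries differed from each other, with COL1A1 at 1385 and 2715 TPM and COL3A1 at 459 and 835, and their values overlapped those of PESFA for COL1A1 and COL3A1. The intervals of the log2 difference were -0.05 to 1.47 for COL1A1, -0.48 to 1.56 for COL3A1 and -0.58 to 0.34 for COL4A1. The fibroblast markers summed to 1143 and 2192 TPM, or 641 and 1665 without FBLN1, with the higher sum in the library with more COL1A1.

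After 12 h in BLSE with IWR1, 8 of the 31 chains were lower DEGs against Pre and 0 were higher, where 1.04% of all genes were lower and 0.152% higher DEGs (1.2% in either direction). By the adjusted p alone 0 rose and 13 fell, against 1.97% and 4.81%. COL1A1 was 119 and 73.6 TPM, COL1A2 46.3 and 15.6 and COL3A1 7.21 and 5.71, each far under the Pre libraries. COL3A1 fell by 6.38 on the log2 scale (-7.40 to -5.37, adjusted p 4.9e-12 by limma), COL1A2 fell by 4.77 and COL1A1 fell by 4.36. COL5A2 fell by 4.05, COL5A1 by 2.92, COL15A1 by 2.89, COL6A2 by 2.78 and COL8A1 by 2.36. The median was -0.80 over the chains against 0.02 over all genes. Not all 8 stayed DEGs when 1 library was left out, and a fit of these 4 libraries alone called 0. Of the processing enzymes LOX fell by 3.93, PCOLCE by 3.44 and BMP1 by 2.92, and of the fibroblast markers S100A6 fell by 5.45. Of 11 fibroblast markers 6 fell and 0 rose. They summed to 777 and 640 TPM at 12 h against 1143 and 2192 in Pre, or 107 and 95.2 against 641 and 1665 without FBLN1. The Pre cells were sorted as TRA-1-60(+) while the 12 h cells were not. The part of sorting and of other cells in these falls was not tested.

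By 48 h with IWR1, 9 chains were lower DEGs against Pre and 0 higher, where 1.48% of all genes were lower and 1% higher DEGs (2.48% in either direction). Regardless of fold, 4 rose and 16 fell, against 9.98% and 9.27%. COL1A2 was at 7.29 and 5.80 TPM (-6.67), COL3A1 at 2.43 and 1.68 (-7.68) and COL1A1 at 35.6 and 49.9 (-5.49). The type IV pair also fell, COL4A1 by 1.4 to 122 and 212 TPM and COL4A2 by 1.12 to 99.9 and 145. COL18A1 was 264 and 380 TPM and differed from Pre by 0.29 with an interval of -0.10 to 0.68. Multiplexins made up 34.0% of summed collagen TPM at 48 h with IWR1. The share was 12.1% in DK20FA cjESCs, which belong to the first arm and are not the start of this series. A few chains of low level rose, among them COL9A2, a chain of the type IX FACIT, by 1.86. A fit of these 4 libraries alone called 0 DEGs.

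Compared with BLSE without SOX17 at the same 48 h, BLSE with IWR1 had 1 higher and 4 lower DEGs among the chains, where 1.04% of all genes were higher and 1.35% lower DEGs (2.38% in either direction). On adjusted p without the fold criterion, 4 rose and 9 fell, against 11.2% and 10%. COL4A1 was lower by 2.94 (-3.41 to -2.48, adjusted p 2.6e-12 by limma), COL4A2 by 2.59 and COL8A1 by 2.46. COL22A1, a FACIT of tissue junctions, was higher by 2.05. With quantile normalization the split was 0 higher and 4 lower. COL1A2 was lower by 2.45, but without replicate 2 of BLSE at 48 h the difference was -1.91 with an adjusted p of 0.0136. COL1A1 (0.00, interval -0.76 to 0.76) and COL3A1 (-0.04, interval -1.06 to 0.98) did not pass the test. ITGA2, an alpha subunit of a collagen-binding integrin, was lower by 3.04, SPARC by 1.55 and LAMC1 by 1.41. Neither condition was sorted, but line, medium and pre-treatment differ together with IWR1 and cannot be told apart, and a fit of these 4 libraries alone called 0 DEGs.

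Adding BMS493 to IWR1 for 48 h raised the type IV pair. COL4A1 was 408 and 405 TPM with BMS493 and 122 and 212 without, and COL4A2 was 270 and 263 against 99.9 and 145. Both BMS493 libraries were above both libraries without it. COL4A1 rose by 1.33 (0.87 to 1.79, adjusted p 0.00015 by limma) and COL4A2 by 1.14 (0.71 to 1.56, adjusted p 0.0004). Without replicate 1 of IWR1 at 48 h these were 0.94 and 0.87, with adjusted p of 0.0182 and 0.0233. COL5A3 fell by 1.16, also lost with 1 library left out, and no chain was a DEG (13 at an unadjusted p under 0.05, 0.241% of all genes called). For 2 chains that rose and 1 that fell, the shares of all genes were 2.87% and 1.96%. Type IV chains made up a mean of 56.2% of summed collagen TPM with BMS493 and 33.7% without. COL1A1 differed by -0.06 with an interval of -0.83 to 0.70. LAMC1 rose by 1.12, ITGA2 by 1.38 and SPARC by 0.74.

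In cjPGCLCs sorted at 96 h COL17A1 and COL6A6 were measured in every induction. COL17A1 was 25.1 and 24.5 TPM in SOX17+BLSE, 21.3 and 20.2 in SOX17+LSE, 13.7 and 14.4 in BLSE+IWR1 and 19.4 and 25.7 in BLSE+IWR1+BMS493. COL6A6, a type VI chain, was 7.24 and 4.28, 13.2 and 10.1, 21.6 and 19.4, and 11.3 and 9.53 TPM in the same order. In unsorted BLSE at 96 h COL17A1 was at 0.23 and 0 and COL6A6 at 0.09 and 0. COL17A1 and COL6A6 were thus higher in all 8 libraries sorted as tdTomato(+) at 96 h than in the 2 unsorted BLSE libraries.

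In the IWR1 series, 96 h against 48 h gave 4 higher and 1 lower DEG, where 1.91% of all genes were higher and 2.58% lower DEGs (4.49% in either direction). Without the fold criterion 9 rose and 7 fell, against 17.6% and 15.9%. COL6A6 rose by 4.11 (3.60 to 4.62, adjusted p 1.1e-15 by limma), COL15A1 by 2.79, COL23A1 by 2.76 and COL17A1 by 2.37, the last from 1.2 and 2.82 to 13.7 and 14.4 TPM. COL26A1 fell by 2.03. With a pseudocount of 0.1 the count of DEGs was 2. COL6A5, the neighbour of COL6A6, rose by 1.84 and COL4A5, a chain of the second type IV network, by 1.8. These 7 calls held with any 1 library left out. The 96 h cells were sorted and the 48 h cells were not, so time and sorting cannot be told apart, and a fit of these 4 libraries alone called 0 DEGs.

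The 2 routes to cjPGCLCs were compared at 96 h, both sorted as tdTomato(+). No chain was a DEG between BLSE+IWR1 and SOX17+BLSE by limma (10 at an unadjusted p under 0.05, 0.572% of all genes called), and without replicate 1 of SOX17+BLSE 2 chains were. Past the adjusted p, 5 chains were higher in BLSE+IWR1 and 0 lower, against 2.04% and 4.05% of all genes. COL6A6 was higher by 1.70 (1.19 to 2.21, adjusted p 1e-05 by limma), a call that held with any 1 library left out. COL3A1, COL4A6, COL18A1 and COL22A1 were also higher, but each lost the call with 1 library left out. The log2 difference was 0.06 for COL4A1 (-0.41 to 0.52), -0.15 for COL23A1 (-0.60 to 0.29), -0.70 for COL15A1 (-1.27 to -0.13, adjusted p 0.104) and -0.78 for COL17A1 (-1.31 to -0.24, adjusted p 0.0498).

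Over the whole second arm, from PESFA cjESCs to day-6 cjPGCLCs, 4 chains were higher and 12 lower DEGs, where 3.07% of all genes were higher and 4.92% lower DEGs (7.99% in either direction). By the adjusted p alone 8 rose and 17 fell, against 24.9% and 20% of all genes, and all 25 calls held with any 1 library left out. The median was -1.58 over the chains and 0.11 over all genes. At day 6 COL1A1 was 3.64 and 4.35 TPM (-7.89, interval -8.66 to -7.13, adjusted p 3.5e-19 by limma), COL3A1 0.25 and 0.97 (-8.09) and COL5A2 4.49 and 5.47 (-4.89). Of the 8 tested fibrillar chains 6 fell and 1, COL27A1, rose (0.92). COL1A2 was still at 26.8 and 26.6 TPM. COL6A1 fell by 4.17 to 10.2 and 9.51 TPM, COL7A1 by 3.85 to 2.40 and 2.81, COL26A1 fell by 3.47 to 6.37 and 7.83, and COL4A1 by 3.19 to 55.7 and 44.8. COL4A2 fell by 1.78 to 92.4 and 79.0.

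The 4 chains that rose most were COL6A6, COL17A1, COL23A1 and COL6A5. COL6A6 was 0.17 and 0.35 TPM in PESFA cjESCs and 42.9 and 46.7 at day 6 (5.19, interval 4.68 to 5.70), COL17A1 1.28 and 0.78 against 36.9 and 32.8 (4.15), and COL6A5 0.51 and 0.29 against 6.84 and 6.39 (2.45). None of these groups overlapped. COL4A5 rose by 1.28 to 52.6 and 55.8 TPM and COL4A6, its partner in the same trimer, by 1.1 to 20.8 and 22.7, so the 2 type IV networks moved in opposite directions. COL22A1 rose by 1.49 to 18.3 and 19.7. Of the 27 biosynthesis genes 2 rose and 20 fell, against 24.9% and 20% of all genes, with PCOLCE down by 4.78 and LOX by 3.51. LAMA1 fell by 3.23 while NID2 rose by 3.10 and LAMC1 by 1.34. Of 11 fibroblast markers 8 fell and 1, FBLN1, rose. They summed to 1051 and 1040 TPM at day 6 against 2251 and 2814 in PESFA cjESCs, or 93.4 and 67.1 against 1647 and 2247 without FBLN1, and their part in the falls was not tested. From 96 h to day 6 no chain was a DEG by limma (16 at an unadjusted p under 0.05, 0.161% of all genes called). Of the 4 that passed the adjusted p, COL17A1 (1.25) and COL6A6 (1.09) rose and COL4A1 and COL6A1 fell. Of all genes 0.831% rose and 1.92% fell. Each of the 4 lost the call with 1 library left out. COL17A1 differed by 1.17 without replicate 1 of day 6 and COL6A6 by 1.02 without replicate 2 of 96 h.

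In the xrOvary the transmembrane chain COL17A1 became the most abundant collagen mRNA. It was 162 and 142 TPM at day 20, 196 and 178 at day 40 and 168 and 178 at day 70, against 36.9 and 32.8 at day 6 before aggregation. The rise from day 6 to day 20 was 2.09 (1.56 to 2.63, adjusted p 8.2e-08 by limma), and from day 20 to day 70 the difference was 0.19 with an interval of -0.35 to 0.72. COL17A1 was the single higher DEG at day 20 against day 6 and 5 chains were lower DEGs, where 0.598% of all genes were higher and 1.7% lower DEGs (2.3% in either direction). Regardless of fold, 1 rose and 15 fell, against 6.56% and 13.8%. COL6A6 went from 42.9 and 46.7 to 3.78 and 2.06 TPM (-3.58, interval -4.09 to -3.07) and COL18A1 from 96.6 and 104 to 12.1 and 17.3 (-2.71). COL1A2 fell by 2.71 to 4.09 and 2.50 TPM, COL22A1 by 2.36 to 3.33 and 2.48, and COL26A1 by 2.24, being listed at 0 and 1.92. COL6A5 did not follow COL6A6 and was 10.7 and 9.35 TPM at day 20 against 6.84 and 6.39 at day 6 (0.53, interval 0.01 to 1.06, adjusted p 0.119). Not all of the 6 DEGs stayed so when 1 library was left out, and a fit of these 4 libraries alone called 0.

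COL4A1 and COL4A2 mRNA kept falling in the xrOvary while COL4A5 and COL4A6 were no lower at day 70 than at day 20. COL4A1 was 27.5 and 18.5 TPM at day 20, 14.7 and 14.0 at day 40 and 6.51 and 9.25 at day 70. COL4A2 was 42.4 and 29.4 at day 20 and 8.87 and 9.07 at day 70. COL4A5 was 28.6 and 27.6 at day 20 and 47.4 and 46.0 at day 70, and COL4A6 had a mean of 25.4 at day 20 and was 35.8 and 39.5 at day 70, so that at day 70 both chains of the second network were above both of the first. Between day 20 and day 70, COL4A2 fell by 1.87, COL6A2 by 1.79, COL5A1 by 1.75, COL6A1 by 1.71 and COL4A1 by 1.42. COL18A1 fell by 2.61 (-3.0 to -2.22, adjusted p 3.1e-13 by limma) to 1.35 and 1.73 TPM and was the single DEG, where 1.02% of all genes were lower DEGs (1.38% in either direction). On adjusted p without the fold criterion, 1 rose and 8 fell, against 3.89% and 12.2%. A fit of these 4 libraries alone called 0 DEGs, and the count was 3 with a pseudocount of 0.1 and 3 without replicate 2 of xrOvary day 20. COL6A6 rose by 1.43 to 9.54 and 9.01 TPM. The intervals of COL4A5 (0.21 to 1.21, adjusted p 0.0314) and COL4A6 (0.06 to 1.03, adjusted p 0.0923) lay above 0 without passing the test.

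SERPINH1 fell from 301 and 297 TPM at day 6 to 131 and 132 at day 20 and 51.2 and 48.8 at day 70. LAMA1 fell by 2.29 between day 6 and day 20 to 0.46 and 0 TPM. LAMC1 was 364 and 380 TPM at day 20 and 312 and 312 at day 70, and NID2 87.1 and 79.9 and then 76.1 and 71.2. The host cells of the aggregate were mouse. The 4 gonadal somatic markers in the table summed to 1.77 and 2.34 TPM at day 20 and 0.26 and 0.85 at day 70. The 11 fibroblast markers summed to 791 and 974 TPM at day 20 and 396 and 396 at day 70. Without FBLN1 these sums were 43.5 and 65.9, and 37.3 and 40.3. At days 20 and 70, 3 and 4 of the 11 were at 0 in both libraries. Reads were aligned to the marmoset genome, and the part of mouse cells in these values was not tested. DCN was listed at 0 in the day-20 and day-70 libraries.

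Chains of one trimer did not keep one ratio. COL1A1 and COL1A2 form the type I trimer in a ratio of 2 to 1, and the ratio of their TPM, averaged over the 2 libraries of a condition, ranged from 0.150 to 6.74 with a median of 0.884. The ratio was over 1 in PESFA and Pre cells and after 48 h with IWR1. It was under 1 in DK20FA cjESCs, where COL1A1 was 41.8 and 83.6 TPM and COL1A2 141 and 108. Each arm had averages on both sides of 1, such as 2.62 in SOX17+BLSE at 48 h and 0.601 in BLSE+IWR1 at 96 h. Libraries of 1 condition could also differ, with 1.59 and 0.528 in xrOvary at day 40. COL4A1 over COL4A2 was steadier, with a range of 0.585 to 1.72 and a median of 1.53. It was over 1 in cjESCs and in BLSE. At 96 h it was 0.889 and 1.12 in the SOX17+BLSE libraries, and it averaged 1.08 in SOX17+LSE, 0.968 in BLSE+IWR1 and 0.944 in BLSE+IWR1+BMS493, and it averaged 0.585 at day 6 and 0.637, 0.815 and 0.877 at days 20, 40 and 70 of the xrOvary. At day 6 COL4A1 was 55.7 and 44.8 TPM and COL4A2 92.4 and 79.0. COL6A1 over COL6A2 ranged from 0.416 to 3.17.

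**Figure D5:**
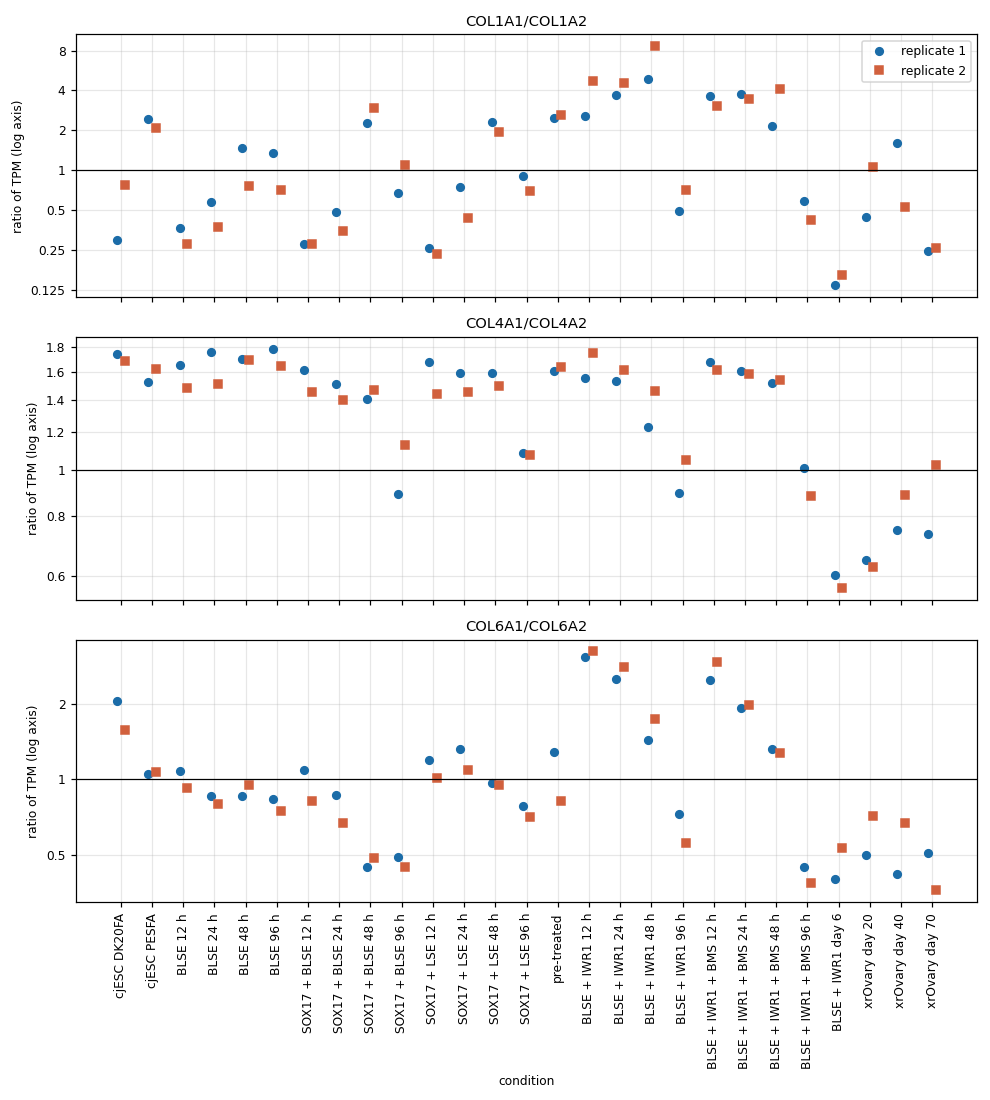
Ratio of TPM within 3 pairs of partner chains, COL1A1 over COL1A2, COL4A1 over COL4A2 and COL6A1 over COL6A2, in each library (points, log axis) by condition; a horizontal line marks 1. COL1A1 over COL1A2 has the widest range, 0.150 to 6.74 over averages of 2 libraries, and COL4A1 over COL4A2 lies close to 1 in the sorted 96 h conditions and averages under 1 at day 6 and in the xrOvary.

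There were 5 pairs of chain genes next to each other in the RefSeq annotation of the assembly calJac240_pri, and in 4 of them both chains passed the filter. Over the 27 condition means of log2(TPM + 1), which share libraries and normalization, Pearson's r was 0.988 for COL4A1 and COL4A2 on chromosome 1, 0.90 for COL6A1 and COL6A2 on chromosome 21, 0.80 for COL4A5 and COL4A6 on chromosome X and 0.71 for COL6A5 and COL6A6 on chromosome 17. For COL9A1 and COL19A1 on chromosome 4 it was 0.19, with COL19A1 below the filter. Among pairs outside these 5, COL1A1 and COL5A2 had an r of 0.92 and COL3A1 and COL5A2 0.91. Distance was not measured, so chains of such pairs may still lie close together. COL17A1 and COL6A5 had an r of 0.96, COL6A6 and COL23A1 0.89, COL4A1 and COL26A1 0.96, and COL17A1 and COL26A1 -0.96. The COL17A1 pattern was thus most like that of COL6A5 and opposite to that of COL26A1, as a description over these conditions.

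A total of 10 tested chains were a DEG in none of the 21 comparisons: COL4A5, COL4A6, COL8A2, COL9A1, COL9A2, COL9A3, COL11A1, COL12A1, COL16A1 and COL21A1. COL21A1, a FACIT, passed the adjusted p in none. COL4A5 ranged from 14.0 to 63.2 TPM and COL4A6 from 9.11 to 37.6 TPM over the condition means, so both were expressed in every condition. The other 9 chains did not pass the filter. COL24A1, a fibrillar chain, was listed at 0 in all 54 libraries. The highest condition mean was 0.71 TPM for COL2A1, the main fibrillar collagen of cartilage, 1.05 for COL6A3, the third chain of the classical type VI trimer, 0.86 for COL13A1, 0.59 for COL20A1, 0.43 for COL28A1, 0.41 for COL25A1, 0.10 for COL14A1 and 0.075 for COL19A1. COL6A1 and COL6A2 were thus measured at up to 228 and 279 TPM in single libraries while COL6A3 was at most 1.06 TPM in any library. Chains with no row in the table, such as COL4A3, COL4A4, COL10A1 and COL11A2, were not analysed here.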

How the data were processed

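Poly(A) libraries were made with a kit that marks strand (NEBNext Ultra Directional). According to the study's methods the authors aligned reads with STAR to Callithrix_jacchus_cj1700_1.1, filtered alignments by mapping quality with samtools and quantified them with RSEM. The deposited values are TPM, and the authors' table covered all 54 libraries. The listed TPM summed to 790300 to 839203 per library. TPM keeps no depth, so depth is unknown and no counting intervals were given. 0 pairs of libraries were identical.

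TPM were tested as log2(TPM + 1) with limma 3.58.1 (R 4.3.3; eBayes with trend, one mean for each of 27 conditions, 27 residual degrees of freedom, two-sided, Benjamini-Hochberg over 11197 genes). The filter, log2(TPM + 1) of at least 1.5 in 1 or more libraries, removed 3615 of 14812 genes. Fold changes on this scale understate changes of low genes. A DEG was over 4-fold, at an adjusted p under 0.01, with a mean log2 over 1.5. The script was tested on simulated data. Any chain gene could be named; of other lists, up to 4 DEGs with the largest change per comparison and 13 fixed genes. The rule for members uses names only, but this gene family, the gene lists and the comparisons were picked with earlier results of these data known. A further 6 comparisons were added after the data were seen: BLSE at 12 h against cjESC, BLSE at 96 h against 48 h, IWR1 at 12 h against Pre, IWR1 at 96 h against 48 h, SOX17+BLSE against SOX17+LSE at 96 h, and day 6 against 96 h. Alternatives were a pseudocount of 0.1, no filter, other normalizations, a fit of only the libraries compared, leaving out each library, and the replicate number as a block. Tables were handled with pandas 2.3.3 and figures drawn with matplotlib 3.10.9.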

Additional observations from a re-analysis of the deposited data

Results flagged for a closer look

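COL6A1 was the one chain whose SOX17 effect changed between times by a test of the difference. SOX17+BLSE against BLSE was 80.3 and 85.7 against 76.1 and 103 TPM at 12 h, and 27.4 and 29.7 against 60.7 and 98.3 TPM at 48 h. The effect at 48 h minus that at 12 h was -1.31 on the log2 scale (95% interval -1.90 to -0.73, adjusted p 0.0037 by limma), where 0.902% of all genes were lower by that test. It lost the adjusted p in 6 of the 8 fits that left out 1 library, at 0.0131 to 0.0773. No chain was a DEG in this test, with 10 of 31 at an unadjusted p under 0.05 and 0.652% of all genes called.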

How the results depend on the processing

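Counts of collagen DEGs in the 21 comparisons and the interaction did not move by over 1.5 times with no filter, median-ratio scaling or quantile normalization. A fit of only the libraries compared, which leaves fewer libraries to estimate the spread, called 0 where the fit over 54 libraries called 5 (PESFA against DK20FA), 1 (BLSE at 48 h against cjESC), 9 (IWR1 at 48 h against Pre), 5 (IWR1 against BLSE at 48 h), 6 (xrOvary day 20 against day 6), 1 (day 70 against day 20), 8 (IWR1 at 12 h against Pre) and 5 (IWR1 at 96 h against 48 h). With a pseudocount of 0.1 the counts became 0 for BLSE at 48 h against cjESC, 1 for SOX17+BLSE against BLSE at 48 h, 3 for day 70 against day 20, 1 for BLSE at 96 h against 48 h and 2 for IWR1 at 96 h against 48 h; the cause was not tested. Leaving out 1 library gave 1 to 2 for BLSE at 48 h against cjESC, 0 to 2 for BLSE at 96 h against 48 h, 0 to 2 for IWR1 against SOX17+BLSE at 96 h, 0 to 1 for SOX17+BLSE against BLSE at 48 h and 1 to 3 for day 70 against day 20, with the lone library assumed to vary like the other conditions. Over the 232 calls of single chains none changed sign. The adjusted p was lost in 177 with the fit of only the libraries compared, 33 with the pseudocount, 18 with no filter, 10 with quantile normalization and 7 with median-ratio scaling, and in 204 of 932 fits without 1 library. The replicate numbers do not pair the libraries: over 351 pairs of conditions the correlation of same-numbered deviations had a median of 0.00947 (-0.271 to 0.289), with 41 over 0.1. In the fit with a replicate block the count for PESFA against DK20FA was 5, no count of DEGs moved by over 1.5 times, and 3 calls of single chains were lost. Rescaling moved the all-gene median by over 0.1 on the log2 scale in 6 comparisons. TPM keeps no depth, so whether a chain listed at 0 was below detection cannot be told.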
